A study of Drosophila melanogaster with 26 samples.

Results

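The 8 libraries of Drosophila melanogaster embryos labelled Zld294 were studied along the gradient of developmental age that their own maternal transcripts trace. They are 8 of the 26 libraries of the series and were chosen by title. All Zld294 libraries carry the genotype label Zld294 and the label day 3, and Zld294 is read here, as background, as a mutant allele of zelda (zld). The labels give neither the cross that produced these embryos nor whether they carry a paternal copy of zld. Nothing in the labels says that the libraries of a genotype come from separate crosses, so p-values measure the spread between these samples. Each library holds 3 pooled embryos staged to nuclear cycles 13 to 14, so a library is a mean over embryos that may differ in age. The other libraries used for comparison are 9 from Zf5 embryos (genotype label mNG-ZF5 GLC, 3 on day 1 and 6 on day 2), in which the 5th zinc finger of Zelda is deleted, and 9 from wild-type embryos. The wild-type libraries are 3 from day 1 with the genotype label sfGFP-ZLD and 6 from day 2 with the label H2B-EGFP, so both wild types carry a fluorescent fusion. Zld294 was sampled on a day of its own, so genotype and day cannot be told apart in any level set beside another genotype.

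In the early fly embryo development runs on RNA loaded into the egg by the mother. The maternal-to-zygotic transition hands control to the embryo's genome: maternal RNAs are degraded, and zygotic genes are switched on, a few in the rapid nuclear cycles and many during cycle 14, when the blastoderm cellularizes and is patterned. Zelda is a zinc finger protein that binds a short sequence element in early enhancers and opens chromatin there, and it is required for much of this activation.

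The maternal score of a library was the mean log2(CPM + 1) of 8 maternal genes, where CPM is the read count of a gene scaled to a total of 1000000 per library. A lower score was taken as a later library, and replicates are given below from the highest score to the lowest. The scores of the Zld294 libraries were 8.94 in replicate 2, 8.68 in replicate 4, 8.45 in replicate 5, 8.43 in replicate 1, 8.36 in replicate 7, 8.32 in replicate 3, 8.15 in replicate 6 and 8.05 in replicate 8. They were spread without a gap that sets libraries apart as groups, over a range of 0.886 units. Wild-type scores ran from 6.85 to 8.74, and 5 of the 9 wild-type libraries lay inside the Zld294 range. Because these values chose the order, they are a description and carry no test.

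**Figure D1:**
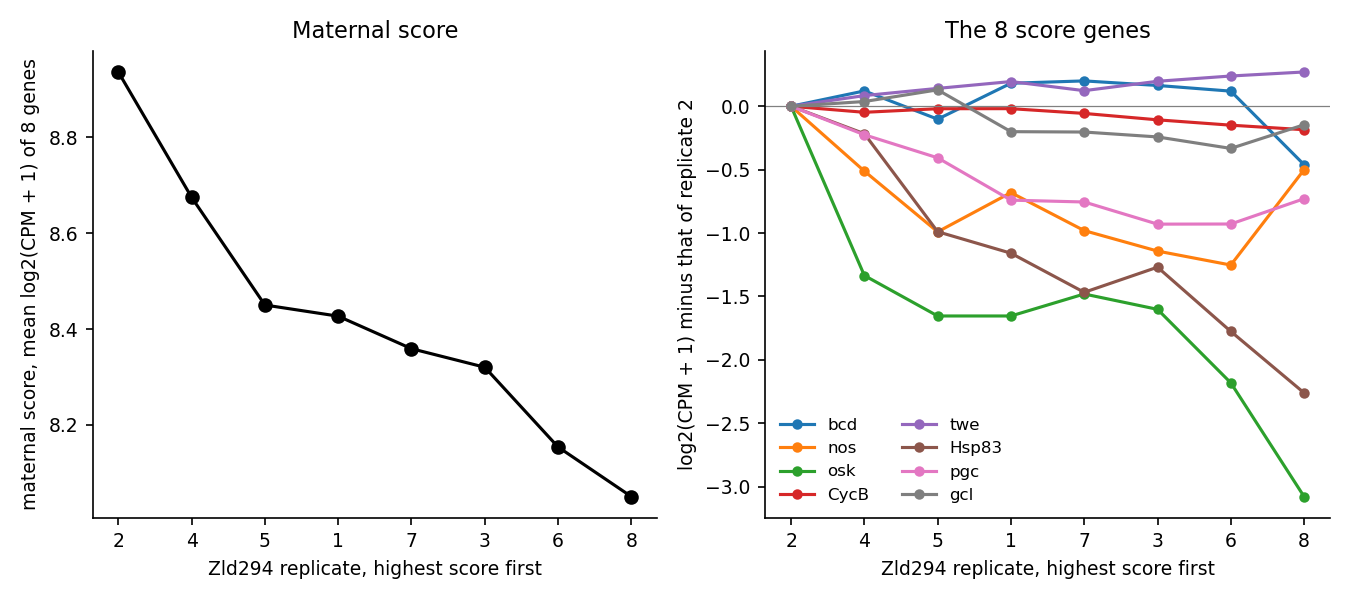
Left, maternal score of each Zld294 library (mean log2(CPM + 1) of 8 maternal genes), ordered from the highest score in replicate 2 (8.94) to the lowest in replicate 8 (8.05). Right, each score gene as log2(CPM + 1) minus its value in replicate 2, where osk and Hsp83 end at -3.08 and -2.26 in replicate 8 and the other 6 genes end between -0.73 and 0.27.

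The score genes did not decline alike. Hsp83, a chaperone gene whose maternal RNA is a standard target of the Smaug clearance pathway, had 1689 CPM in replicate 2, 1453, 850 and 756 CPM in replicates 4, 5 and 1, 610 and 700 CPM in replicates 7 and 3, and 492 and 352 CPM in replicates 6 and 8. The posterior determinant osk had 375 CPM in replicate 2, between 118 and 148 CPM in the next 5 libraries, and 81.8 and 43.5 CPM in replicates 6 and 8. Both were highest in replicate 2 and lowest in replicate 8. The translational repressor nos had 253 CPM in replicate 2 and 106 to 179 CPM elsewhere, with 179 CPM in replicate 8, and the germ cell gene pgc had 119 CPM in replicate 2 and 62.0 CPM at its lowest in replicate 3. The anterior determinant bcd had 225 CPM in replicate 8 and 289 to 356 CPM in the others. CycB, the mitotic cyclin, lay between 4021 and 4571 CPM, the Cdc25 phosphatase gene twe was higher in replicate 8 (343 CPM) than in replicate 2 (284 CPM), and the pole cell gene gcl lay between 334 and 461 CPM. Replicate 8 differed from replicate 2 by -3.08 for osk and -2.26 for Hsp83 on the log2(CPM + 1) scale, and by -0.73 to 0.27 for the other 6, so the score orders these libraries mainly by osk and Hsp83.

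The zld transcript had 0.0873 CPM in replicate 2, 2.39, 1.05 and 1.55 CPM in replicates 4, 5 and 1, 43.2 and 0.522 CPM in replicates 7 and 3, and 1.13 and 20.2 CPM in replicates 6 and 8. It was near 0 in 6 libraries, and replicates 7 and 8 stood above them. Zf5 libraries had 148 to 953 CPM and wild-type libraries 900 to 1344 CPM. Across the Zld294 libraries zld had a Pearson r of -0.475 with the score (exact permutation p = 0.225 two-sided, 0.300 adjusted over 4 relations) and a Spearman rho of -0.381 (exact permutation p = 0.360, 0.480 adjusted). Without the 2 libraries farthest from the median score, replicates 2 and 8, r was 0.038. Counts made without the 2 libraries with most zld are given beside some of the results below.

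More genes were detected in later libraries. Genes above 0 numbered 8803 in replicate 2, 9032, 9478 and 8869 in replicates 4, 5 and 1, 10104 and 9909 in replicates 7 and 3, and 10279 and 10018 in replicates 6 and 8. Their number had a Pearson r of -0.820 with the score (exact permutation p = 0.00655, 0.0262 adjusted) and a Spearman rho of -0.810 (exact permutation p = 0.0218, 0.0871 adjusted), and r was -0.792 without replicates 2 and 8. Genes with at least 1 CPM numbered from 6716 to 7085 and had an r of -0.779 (exact permutation p = 0.0187, 0.0373 adjusted), a rho of -0.738 (exact permutation p = 0.0458, 0.0917 adjusted) and an r of -0.731 without those libraries. The estimated number of reads, 18.5 to 21.0 times 1000000 a library, had an r of 0.209 with the score (exact permutation p = 0.626 before and after adjustment), a rho of 0.262 (exact permutation p = 0.536 before and after adjustment) and an r of -0.173 without replicates 2 and 8. On the 500 most variable genes the first principal component held 71.8% of the variance and had an r of -0.940 with the score.

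Blastoderm markers were unevenly present along the gradient. The cellularization gene slam had 289 to 382 CPM in every Zld294 library, whereas the zygotic markers Kr, eve, ftz, nullo, sna and twi had between 0.146 and 2.56 CPM in replicate 2 and between 38.3 and 69.7 CPM in replicate 8. Of 20 follicle cell and adult tissue genes, 1 reached 1 CPM in a Zld294 library, the chorion gene Cp15, with 27.6 CPM in replicate 2 and at most 7.34 CPM elsewhere. The list summed to 0.957 to 28.6 CPM in Zld294 and 0.175 to 1.79 CPM in wild type, and 4 of its genes were at 0 in every Zld294 library. The 21 genes of differentiated late embryonic tissues summed to 79.1 to 180 CPM in Zld294 and 11.9 to 41.3 CPM in wild type, of which Syt1 made up 75.3 to 166 CPM in Zld294 and 7.86 to 22.2 CPM in wild type. In the limma fits described below, Cp15 had a slope of -3.56 on the score and did not pass. It passed as falling with a pseudocount of 5, without replicate 3 and without replicate 4, and its slope was -0.18 without replicate 2. Of 4 late tissue genes tested, 1 rose and none fell. The part of these transcripts in the gradient of the other genes was not tested.

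Of 7027 genes tested with limma, 1415 rose as the score fell (20.1%) and 1808 fell (25.7%) at a Benjamini-Hochberg adjusted p under 0.05. The slope is the change in log2(CPM + 1) per 1 unit lower score, and its median over all genes tested was 0.07. With median-ratio scaling in place of CPM the split was 971 rising and 1859 falling, so 34.3% of calls rose, against 43.9% on CPM. The calls lean on the ends of the gradient: 202 genes rose and 910 fell without replicate 2, 818 rose without replicate 4, 894 rose without replicate 8, and 8 rose and 315 fell without both replicates 2 and 8. Without replicates 7 and 8, the libraries with most zld, 565 rose and 1461 fell. In the 6 libraries left without replicates 2 and 8, the correlation with the score kept its sign for 1408 of the 1415 rising and all 1808 falling genes. The calls were made with these 6 libraries among the 8, so a kept sign largely follows from that choice and is a description. Since the libraries are mixtures of cells, fewer cells of a type and less RNA per cell cannot be told apart in any of these slopes.

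Rising and falling genes differed in the size of their slopes. The median size was 0.42 among rising and 1.24 among falling genes. A slope over 1 was reached by 244 rising and 1157 falling genes, a slope over 3 by 99 rising and 15 falling genes, and a slope over 5 by 33 rising genes and 1 falling gene. Among the rising genes 203 had under 1 CPM in replicate 2, and 62 were listed at 0 there. Of these 203 genes, 43 had at least 1 CPM in replicate 4, 107 in replicate 5, 58 in replicate 1, 197 in replicate 7, 142 in replicate 3, 203 in replicate 6 and 202 in replicate 8. Replicates 5 and 7 therefore had more of these genes on than the libraries next below them in score, replicates 1 and 3. The 203 genes were chosen as rising over these same libraries, and the filter asks for 1 CPM in 3 of them. High counts in the last libraries follow largely from that choice and are a description. Of the 244 genes that rose with a slope over 1, replicate 5 was above replicate 1 in 218 and replicate 7 was above replicate 3 in 201. Replicate 8 was above replicate 6 in 118 of the 244, so the last step of the score was not matched by a further step in most of them. Replicate 7 lay above the fitted line in 91.0% of the 244 genes and replicate 1 in 2.46%. Of the 1157 genes that fell with a slope over 1 in size, replicate 7 lay above the line in 70.3% and replicate 1 in 27.1%, so both libraries deviated the same way in rising and falling genes. The zld level of replicate 7 was the highest (43.2 CPM), and that of replicate 1 was 1.55 CPM; the part of zld in these deviations was not tested.

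**Figure D2:**
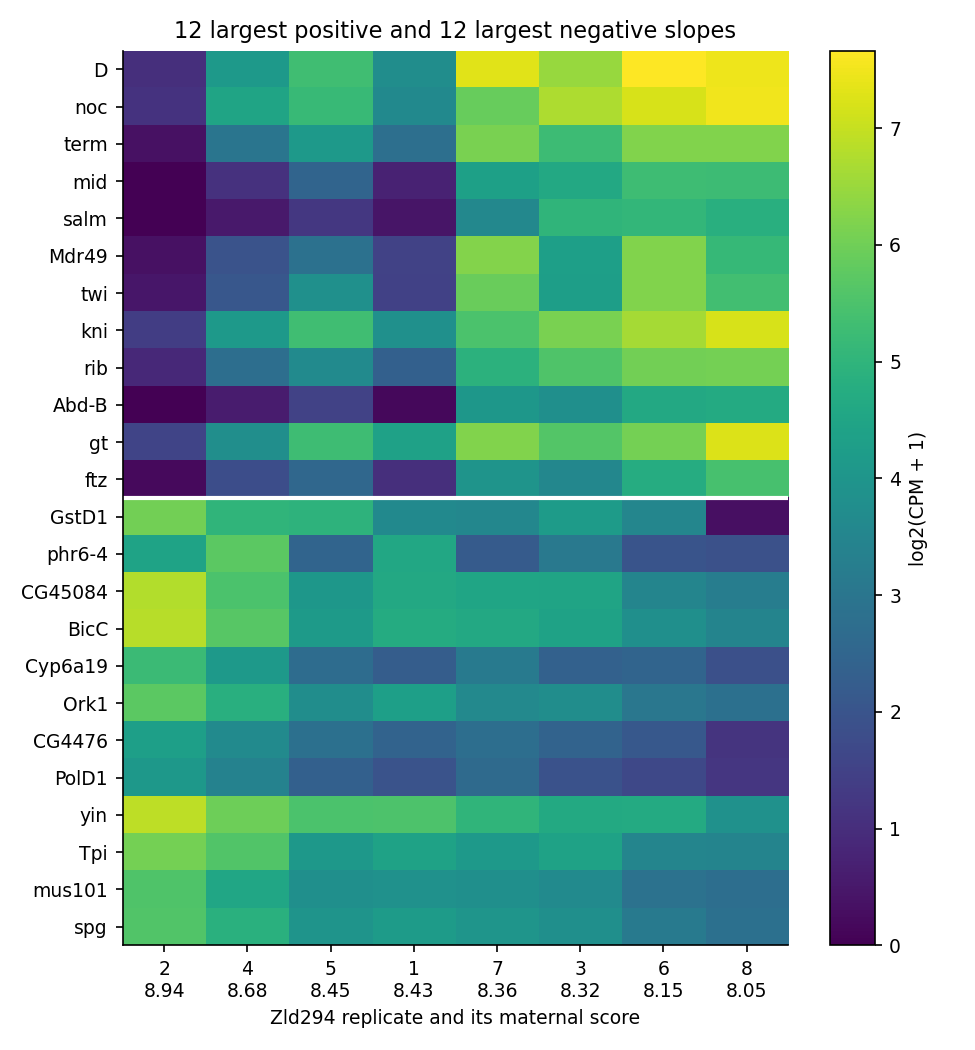
Level of the 12 genes with the largest positive slope (above the white line) and the 12 with the largest negative slope, in the 8 Zld294 libraries from the highest maternal score at left to the lowest at right. Colour is log2(CPM + 1). D, at the top, had 1.03 CPM in replicate 2 and 177 CPM in replicate 8, and GstD1 had 64.3 CPM in replicate 2 and 0.254 CPM in replicate 8.

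The 12 leading rising genes were D, noc, term, mid, salm, Mdr49, twi, kni, rib, Abd-B, gt and ftz, with slopes from 7.56 to 5.88. D (Dichaete, FBgn0000411, chromosome 3L, positions 14175610 to 14178620 on the minus strand of BDGP6) encodes a Sox transcription factor of the blastoderm trunk. It had 1.03 CPM in replicate 2, 16.6, 39.1 and 12.5 CPM in replicates 4, 5 and 1, 157 and 87.3 CPM in replicates 7 and 3, and 202 and 177 CPM in replicates 6 and 8. The slope was 7.56 (SE 1.05, adjusted p = 0.000444). The zinc finger gene noc had 1.18 CPM in replicate 2, a median of 46.1 CPM and 179 CPM in replicate 8 (slope 6.98, SE 0.91, adjusted p = 0.000317). Of these 12 genes, Mdr49 and twi overlap exons of neighbouring genes, and because no strand setting is given in the sources used here their reads may include those of the neighbours. The same holds for lok, exu, del, Orc2 and Orc4 below, which overlap genes on the other strand.

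The gap genes, which divide the embryo into broad domains under the maternal gradients, rose together. Of 14 gap and head gap genes tested, 11 rose and 1 fell, with a median slope of 4.56 against 0.07 over all genes tested. The trunk gap gene kni (FBgn0001320, chromosome 3L, positions 20692330 to 20695378, minus strand) had 1.64 CPM in replicate 2, 16.2, 38.4 and 13.5 CPM in replicates 4, 5 and 1, 43.6 and 68.2 CPM in replicates 7 and 3, and 98.0 and 146 CPM in replicates 6 and 8 (slope 6.27, SE 0.66, adjusted p = 9.5e-05). It climbed at almost every step, with replicate 1 the exception. The gap gene gt had 1.99 CPM in replicate 2, a median of 43.1 CPM and 153 CPM in replicate 8 (slope 6.01, SE 0.58, adjusted p = 6.07e-05), and tll, the terminal gap gene, had 0.874 CPM in replicate 2, a median of 20.3 CPM and 63.2 CPM in replicate 8. The head genes oc and btd reached 34.2 and 59.6 CPM. hb, whose RNA is both maternal and zygotic, had 161 to 338 CPM (slope 0.67, adjusted p = 0.121), knrl had at most 2.16 CPM, and cnc was the falling member. In wild type 6 of the 12 gap and head gap genes tested rose and 1 fell. Over all genes 20.1% rose in Zld294 and 26.5% in wild type. The Zld294 count was 10 of 14 rising without replicate 2 and 10 of 12 without replicates 7 and 8.

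Pair-rule genes, the next tier of the segmentation cascade, rose in 8 of 11 cases, with none falling and a median slope of 3.62. ftz had 0.146 CPM in replicate 2, a median of 7.83 CPM and 42.4 CPM in replicate 8 (slope 5.88, SE 0.91, adjusted p = 0.000829). run had 1.01 CPM in replicate 2, between 5.75 and 24.8 CPM in the next 6 libraries, and 121 CPM in replicate 8 (slope 5.74, adjusted p = 0.000115). Wild-type libraries had 7.09 to 97.9 CPM. The others that rose were h, eve, odd, prd, slp1 and slp2. opa, a late-acting member of the tier, had at most 2.29 CPM (slope 1.40, adjusted p = 0.108), and the largely maternal ftz-f1 and Ten-m had slopes of 0.13 and 0.19. In wild type 2 of 10 pair-rule genes tested rose. Over all genes 20.1% rose in Zld294 and 26.5% in wild type, so the wild-type count is not above its share of all genes. The Zld294 count was 7 of 11 rising without replicate 2 and 8 of 10 without replicates 7 and 8.

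The segment polarity and Hox genes act after the pair-rule tier. The Wnt receptor gene fz2 had 17.9 to 28.1 CPM across the 8 libraries and made up most of the summed segment polarity level of the early ones, 27.9 CPM in replicate 2, where ptc was next at 0.630 CPM. The 9 Hox genes summed to 0.462 CPM in replicate 2. Of 16 segment polarity genes 10 had enough signal to test, and 6 rose with none falling (median slope 3.16, and 1.26 with a pseudocount of 5). Over all genes 20.1% rose and 25.7% fell. A gene near 0 in the early libraries passes the filter only through later ones where it is high, which favours rising calls. With no filter 7 of 14 rose (median slope 2.83), and with at least 5 CPM in 3 libraries 1 of 5 rose. The T-box gene mid (FBgn0261963, chromosome 2L, positions 5461639 to 5467610, plus strand) was at 0 in replicate 2, had 1.14, 4.59 and 0.675 CPM in replicates 4, 5 and 1, and 19.4, 23.8, 37.8 and 37.1 CPM in replicates 7, 3, 6 and 8 (slope 6.77, SE 1.17, adjusted p = 0.00159). The 4 later libraries were all above the 4 earlier ones. Its paralogue H15 was at 0 in replicate 2 and had 5.28 CPM in replicate 8, and the Wnt ligand gene wg was at 0 in replicate 2 and had 17.4 CPM in replicate 8 (slope 4.58, SE 0.65, adjusted p = 0.000522). Of 9 Hox complex genes outside the score 5 could be tested, and 4 rose: Abd-B, abd-A, zen2 and Antp (median slope 2.31, and 1.63 over all 9 with no filter and 0.87 with a pseudocount of 5). Abd-B, which specifies the posterior abdomen, was at 0 in replicate 2, had 0.486, 1.84 and 0.124 CPM in replicates 4, 5 and 1, and 15.7, 12.9, 23.4 and 24.9 CPM in replicates 7, 3, 6 and 8 (slope 6.18, SE 1.27, adjusted p = 0.00409). abd-A followed with 0.0499 CPM in replicate 2 and 23.3 CPM at its highest in replicate 6. Without replicates 7 and 8, 3 of 4 segment polarity and 2 of 2 Hox genes left to test rose, and without replicate 2 the Hox count was 2 of 5.

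For these later genes the highest Zld294 library often stood above wild type. The highest Zld294 library exceeded the highest wild-type library for Abd-B (24.9 CPM in Zld294 and 0.936 CPM in wild type), abd-A (23.3 CPM in Zld294 and 1.55 CPM in wild type), mid (37.8 CPM in Zld294 and 2.86 CPM in wild type), H15 (5.28 CPM in Zld294 and 0.0614 CPM in wild type) and wg (17.4 CPM in Zld294 and 6.28 CPM in wild type). This held for 8 of 13 segment polarity, 7 of 9 Hox and 16 of 30 late cycle 14 genes with at least 1 CPM in 3 of the 26 libraries, against 32.1% of all 8200 such genes. A gene can pass this filter with under 1 CPM in every wild-type library, as Abd-B and H15 did, which favours this order. The lists also share members such as mid, so the counts are not independent and are a description. Dr, vvl, en and ple, the tyrosine hydroxylase gene of the cuticle and neurons, showed the same order, with ple at 7.52 CPM at most in Zld294 and 0.771 CPM in wild type. Of the 20 late cycle 14 and gastrulation genes tested, 16 rose and 1 fell in Zld294 (median slope 2.95, and 1.10 with a pseudocount of 5), with 19 of all 36 rising and a median slope of 1.44 with no filter, 10 of 20 rising without replicate 2 and 7 of 10 without replicates 7 and 8. No score matches these libraries in time across genotypes, and the level differences were not tested.

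**Figure D3:**
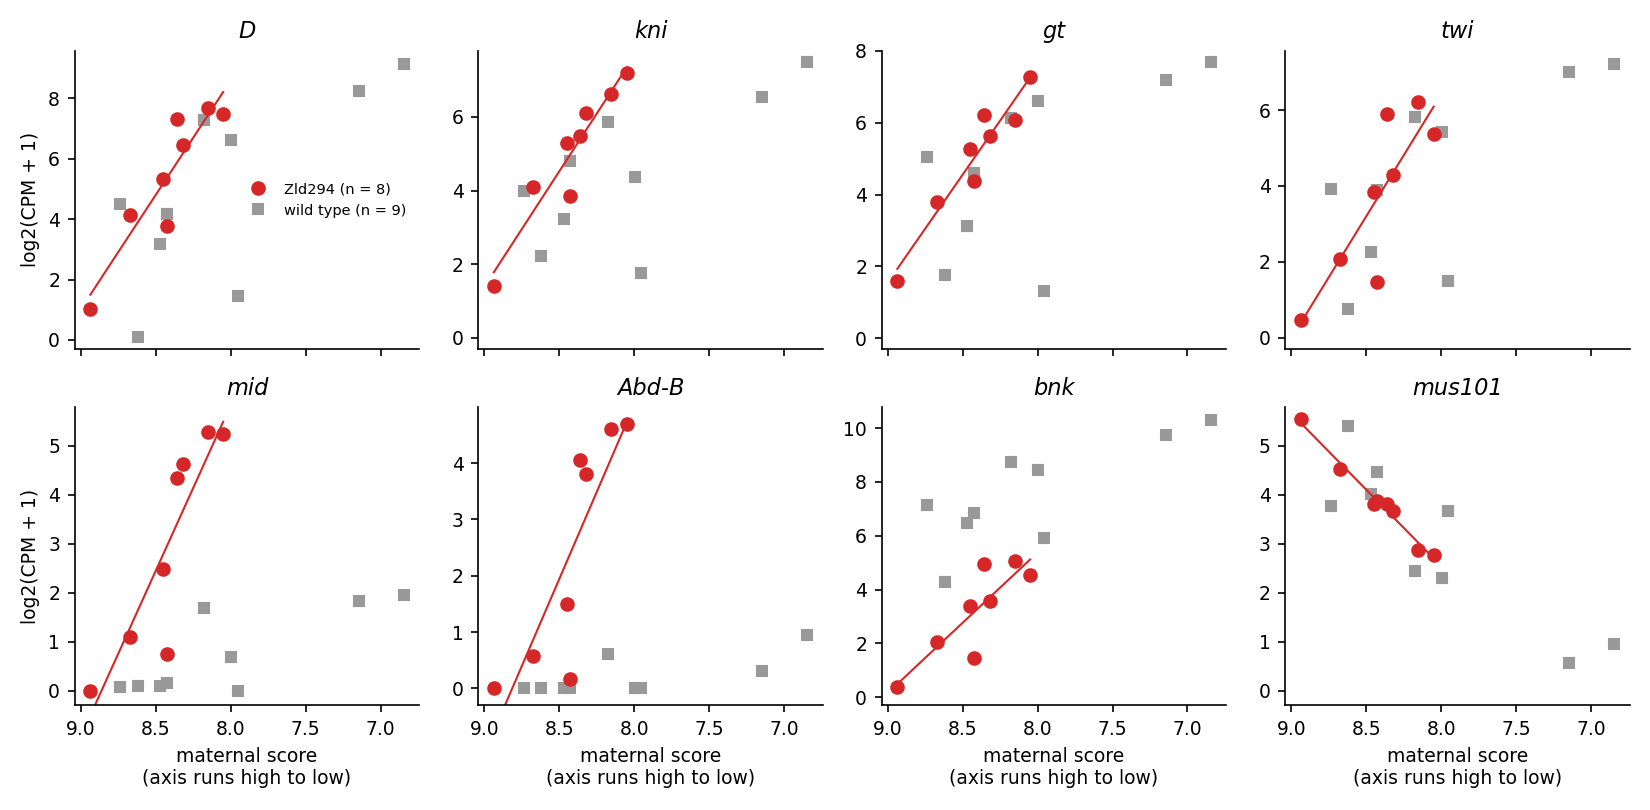
Level of 8 genes against the maternal score, with the score running from high (left) to low (right). Red circles are the 8 Zld294 libraries with their fitted line, grey squares the 9 wild-type libraries; mid and Abd-B reach 37.8 and 24.9 CPM in Zld294 and 2.86 and 0.936 CPM in wild type, and bnk reaches 32.8 CPM in Zld294 and 1248 CPM in wild type.

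In the neuroectoderm and midline list 12 of 16 genes tested rose and none fell (median slope 2.87, and 1.06 with a pseudocount of 5). With no filter 13 of all 23 rose and the median slope was 2.02. The BMP antagonist sog had 0.304 CPM in replicate 2, a median of 8.12 CPM and 38.4 CPM in replicate 7, and the repressor brk had 0.146 CPM in replicate 2, a median of 9.33 CPM and 38.4 CPM in replicate 8. vnd, which specifies the ventral neuroectoderm column, reached 22.9 CPM. ind, ac, ase and wor stayed under 1 CPM in all 8 libraries. In the dorsal ectoderm list 8 of 14 rose and 1, ush, fell (median slope 2.20, and 0.71 with a pseudocount of 5). With no filter 10 of all 21 rose and the median slope was 0.89. The rising members were led by Ama with 0.0501 CPM in replicate 2 and 28.3 CPM in replicate 6, and zen with 1.07 CPM in replicate 2 and 41.9 CPM in replicate 8. The BMP ligand gene dpp rose to 4.18 CPM in replicate 8 (slope 2.58, SE 0.52, adjusted p = 0.00367), with 0.525 to 81.8 CPM in wild type. Without replicates 7 and 8, 8 of 11 neuroectoderm and 3 of 9 dorsal ectoderm genes rose, without replicate 2, 7 of 16 neuroectoderm genes rose, and without replicate 8, 4 of 13 dorsal ectoderm genes rose.

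In the mesoderm list 4 of 12 genes tested rose and 3 fell, near the 20.1% and 25.7% of all genes. The median slope was 0.78, and it was -0.26 over the 10 genes left by a filter at 5 CPM and -0.34 over the 9 left without replicates 7 and 8. The mesoderm determinants twi and sna rose: twi had 0.391 CPM in replicate 2, a median of 15.9 CPM and 72.7 CPM in replicate 6 (slope 6.43, SE 1.31, adjusted p = 0.00396), and sna had 1.51 CPM in replicate 2, a median of 24.6 CPM and 84.1 CPM in replicate 6. Both were also high in replicate 7, at 58.7 and 74.4 CPM. Mdr49, a transporter gene, and pyr, an FGF ligand gene expressed in the ectoderm, were the other rising members. Mef2, T48 and Mes2, present at 42.8 CPM or more in replicate 2, fell. Without replicate 2, 2 of the 12 rose. Among gut and endoderm genes 6 of 10 rose and none fell, including fkh, byn and the terminal gap gene hkb, while srp, the endoderm and blood GATA factor gene, had 1.44 to 2.71 CPM (slope -0.30, adjusted p = 0.476). With no filter 6 of 12 gut genes rose, and without replicates 7 and 8, 2 of 6 rose.

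Among genes known to start in the rapid cycles or at the onset of cycle 14, the Zld294 libraries held a group that climbed and a group that stayed near 0. Of 45 such genes 30 could be tested, and 25 rose and 1 fell (median slope 4.85, against 0.07 over all genes tested). The filter leaves out members that stayed near 0: with no filter 27 of all 45 rose and the median slope was 2.51. Without replicate 2, 17 of 30 rose, and without replicates 7 and 8, 22 of 28 rose. The climbing group includes term, gt, kni, ftz, twi, brk, nullo, run and Kr. nullo, which acts in membrane formation at cellularization, had 0.683 CPM in replicate 2, a median of 15.4 CPM and 56.1 CPM in replicate 8, where wild type had 7.49 to 307 CPM. term had 0.262 CPM in replicate 2, a median of 26.8 CPM and 73.3 CPM in replicate 6, where wild type had 10.8 to 1152 CPM in wild type.

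The 15 genes below the filter were sisA, scw, tsg, tld, E(spl)m4-BFM, E(spl)m5-HLH, Elba1, bard, halo, spo, phm, CG14014, CG13465, sala and Z600. Elba1, an insulator protein gene, had at most 0.570 CPM in Zld294 and 7.72 to 1400 CPM in wild type. bard had at most 1.43 CPM in Zld294 and 19.2 to 1446 CPM in wild type. The BMP-like ligand gene scw had at most 0.493 CPM in Zld294 and 8.12 to 315 CPM in wild type, and tld, the protease that releases BMPs, had at most 0.348 CPM in Zld294 and 3.16 to 269 CPM in wild type. sisA, an X-chromosome counting gene, had at most 0.607 CPM in Zld294 and 7.88 to 112 CPM in wild type. Every Zld294 library was below every wild-type library for 17 of the 45 genes, against 2.27% of 8200 genes. The 8200 genes are those with at least 1 CPM in 3 of the 26 libraries. A gene can pass this filter with under 1 CPM in every Zld294 library, as Elba1, scw, tld and sisA did. That favours this order, so the count is a description. esg and amos, which rose, were among the 17: esg had 0.0485 CPM in replicate 2 and 8.96 CPM in replicate 8 (slope 3.75, adjusted p = 0.00136), against 10.9 to 71.0 CPM in wild type, and amos reached 1.92 CPM, against 14.1 to 92.4 CPM in wild type.

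Of 15 cellularization genes tested, 4 rose and 1 fell (median slope 0.22), against 20.1% and 25.7% of all genes. The counts were 2 rising and 0 falling without replicate 2, 5 and 2 without replicate 8, 3 and 2 without replicate 6, and 6 and 2 without replicates 7 and 8. nullo, bnk and Sry-alpha rose, with bnk at 0.292 CPM in replicate 2, a median of 10.2 CPM and 32.8 CPM in replicate 6, against 18.6 to 1248 CPM in wild type, and Rho1 rose by a small slope (0.44), while RhoGEF2 fell (slope -1.58). Sry-alpha overlaps its neighbour Sry-beta on the same strand, so their reads can be mixed. slam and Nrt, present from the start, had slopes of 0.20 (SE 0.15, adjusted p = 0.287) and 0.24 (adjusted p = 0.213) in Zld294, against 1.51 (SE 0.32, adjusted p = 0.00333) and 1.62 (adjusted p = 0.00459) in the fit of wild type alone. slam had 289 to 382 CPM in Zld294 and 363 to 4346 CPM in wild type. The difference of these slopes did not pass the test (slam -1.31, SE 0.85, unadjusted p = 0.137 by limma).

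Sxl, the sex determination switch gene, was the falling member of the early list. It had 51.2 CPM in replicate 2, 34.9, 33.9 and 22.5 CPM in replicates 4, 5 and 1, 37.0 and 19.6 CPM in replicates 7 and 3, and 27.3 and 17.4 CPM in replicates 6 and 8 (slope -1.44, SE 0.36, adjusted p = 0.0107). Without replicate 2, or without replicate 8, no gene of the early list passed as falling by limma, so the Sxl call rests on both end libraries. In wild type it had 21.4 to 665 CPM with a slope of 2.44 (SE 0.53, adjusted p = 0.00385). The difference of slopes was -3.88 (SE 1.07, unadjusted p = 0.00145, adjusted p = 0.686). Of the X-linked signal genes that turn Sxl on, sc rose to 5.87 CPM in replicate 8, run to 121 CPM and upd1 to 15.4 CPM, whereas sisA stayed at or under 0.607 CPM. msl-2, the dosage compensation gene that Sxl represses, had 1.77 to 2.91 CPM in the 4 earlier and 8.31 to 12.7 CPM in the 4 later libraries (slope 2.61, SE 0.78, adjusted p = 0.022).

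**Figure D4:**
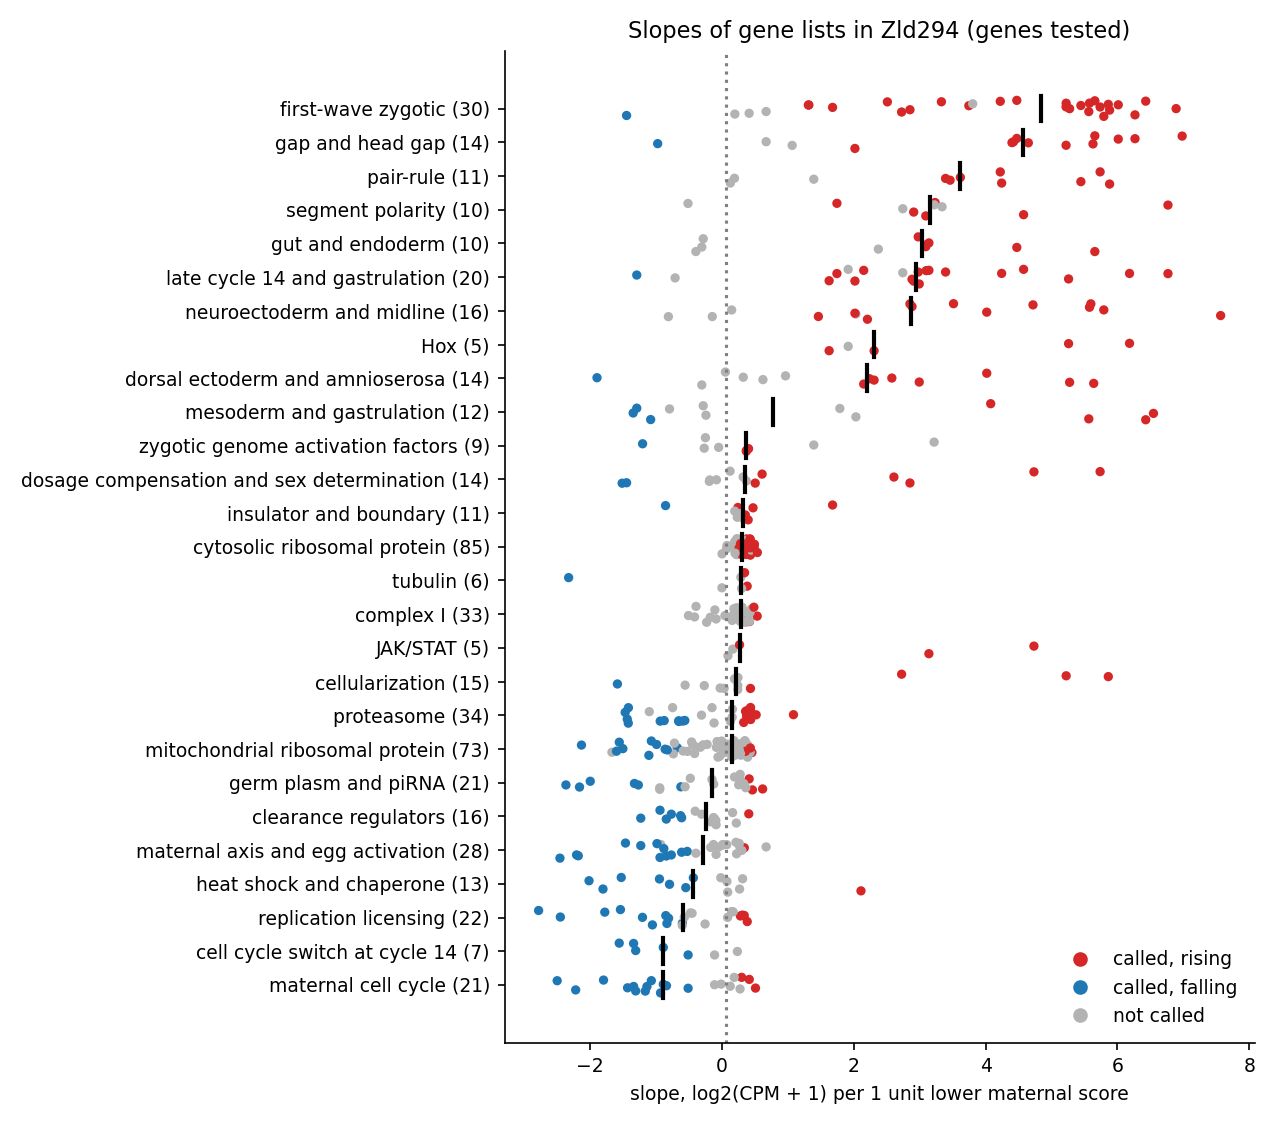
Slopes of the genes tested in each gene list of at least 5 tested genes, in log2(CPM + 1) per 1 unit lower maternal score; points are genes (red called rising, blue called falling, grey not called), black bars list medians, and the dotted line is the median of all genes (0.07). The early zygotic list has the highest median (4.85) and the maternal cell cycle and cycle 14 cell cycle switch lists the lowest (-0.88 each).

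The leading falling genes were of mixed function, with slopes from -5.09 to -3.08: GstD1, phr6-4, CG45084, BicC, Cyp6a19, Ork1, CG4476, PolD1, yin, Tpi, mus101 and spg. GstD1 (FBgn0001149, a glutathione transferase gene) had 64.3 CPM in replicate 2, 31.0, 30.3 and 11.4 CPM in replicates 4, 5 and 1, 10.7 and 17.5 CPM in replicates 7 and 3, and 10.5 and 0.254 CPM in replicates 6 and 8 (slope -5.09, SE 1.03, adjusted p = 0.00385). Its lowest library lay far below the next. mus101 (FBgn0002878, chromosome X, positions 13722246 to 13727113, plus strand), a replication and repair gene, had 45.6 CPM in replicate 2, 22.1, 13.02 and 13.6 CPM in replicates 4, 5 and 1, 13.1 and 11.7 CPM in replicates 7 and 3, and 6.34 and 5.80 CPM in replicates 6 and 8 (slope -3.12, SE 0.22, adjusted p = 2.07e-05). The RNA-binding oogenesis gene BicC had 114 CPM in replicate 2, a median of 22.0 CPM and 10.0 CPM in replicate 8, but it shares exons on the same strand with CG45084 and the division of reads between them is uncertain. Tpi, a glycolytic enzyme gene, had 65.5 CPM in replicate 2 and 10.0 CPM in replicate 8. In wild type the slopes of all 12 genes were negative, and 11 of the 12 passed the test there; PolD1 did not (slope -0.73, adjusted p = 0.0567).

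Maternal axis and egg activation genes fell in 12 of 28 cases and rose in 1 (median slope -0.28), against 25.7% falling and 20.1% rising over all genes. Largest were exu, needed to localize bcd RNA, with 96.0 CPM in replicate 2, a median of 31.9 CPM and 19.8 CPM in replicate 8 (slope -2.45, SE 0.36, adjusted p = 0.000596), and dl, the dorsoventral morphogen gene, with 116 CPM in replicate 2, a median of 46.4 CPM and 26.9 CPM in replicate 8 (slope -2.20, SE 0.24, adjusted p = 0.000109). egl, part of the RNA transport complex, had 134 CPM in replicate 2 and 36.9 CPM in replicate 8, and png, the kinase gene of egg activation, had 26.9 CPM in replicate 2 and 10.6 CPM in replicate 8. The dorsoventral inhibitor cact was the rising member (slope 0.34). tor, Tl, stau, pum and BicD had slopes between -0.08 and 0.27 and did not pass. Without replicate 2, 8 of 28 fell.

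Of 16 regulators of maternal RNA clearance tested, 6 fell and 1 rose (median slope -0.23), against 25.7% falling and 20.1% rising over all genes. smg, the RNA-binding repressor that targets Hsp83 and nos, had 2998 to 3935 CPM (slope -0.17, adjusted p = 0.408), and pum had 488 to 887 CPM (slope -0.08, adjusted p = 0.841). brat fell, with 838 CPM in replicate 2 and 356 CPM in replicate 8 (slope -1.23, SE 0.20, adjusted p = 0.00109), as did the deadenylase gene twin and the repressor genes cup and tral. The miRNA effector gene gw rose (slope 0.41, adjusted p = 0.0138).

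Germ plasm and piRNA genes fell in 6 of 21 cases and rose in 3 (median slope -0.15), against 25.7% falling and 20.1% rising over all genes, so the falling share is near that of all genes. del, a factor for piRNA cluster transcription, had 87.6 CPM in replicate 2, a median of 35.7 CPM and 20.7 CPM in replicate 8 (slope -2.36, SE 0.14, adjusted p = 1.15e-05), and the germ granule scaffold gene tud had 107 CPM in replicate 2 and 22.9 CPM in replicate 8 (slope -2.15, adjusted p = 0.00375). AGO3, mael and SoYb rose by slopes of 0.47, 0.62 and 0.42. vas, the germ cell marker, had 57.6 to 135 CPM (slope -0.94, adjusted p = 0.117), with replicates 2, 7, 6, 5 and 4 above 100 CPM. Without replicate 2, 3 of 21 fell and 1 rose, and without replicate 5, 8 fell and 6 rose.

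Cell cycle genes of the egg fell in 13 of 21 cases and rose in 3 (median slope -0.88), against 25.7% falling and 20.1% rising over all genes. Without replicate 2, 6 of the 21 fell, against 910 of 7012 genes. fs(1)Ya, a nuclear lamina protein gene of the first division, had 78.0 CPM in replicate 2, a median of 27.0 CPM and 16.7 CPM in replicate 8 (slope -2.49, SE 0.28, adjusted p = 0.000132), and cort, the female meiotic activator of the anaphase-promoting complex, had 9.04 CPM in replicate 2 and 1.25 CPM in replicate 8, although it overlaps cup on the other strand. The checkpoint kinase genes lok, grp and mei-41 fell, lok with a slope of -1.43 (SE 0.13, adjusted p = 4.64e-05). Cdk1, CycB3 and fzy rose by slopes of 0.51, 0.30 and 0.42. Of 22 replication licensing genes 10 fell and 4 rose (median slope -0.58): the origin recognition genes Orc2 and Orc4 had 28.5 and 26.9 CPM in replicate 2 and 4.50 and 5.67 CPM in replicate 8, whereas Cdc6, geminin, Mcm7 and Sld5 rose by slopes of 0.28 to 0.39. The rising counts of both lists were under the share of all genes. Without replicate 2 none of the genes of either list passed as rising by limma, and with median-ratio scaling 2 of 21 cell cycle and 0 of 22 replication genes rose. stg, the Cdc25 gene whose maternal RNA is lost as cycle 14 starts, had 684 CPM in replicate 2 and 533 CPM in replicate 8 (slope -0.51, adjusted p = 0.00804).

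Heat shock and chaperone genes fell in 7 of 13 cases, led by Hsp26 with 589 CPM in replicate 2, a median of 234 CPM and 167 CPM in replicate 8 (slope -2.01, SE 0.28, adjusted p = 0.000476). The 1 that rose was Hsp68 (slope 2.11, SE 0.44, adjusted p = 0.00422), with 3.59 CPM in replicate 2 and 16.3 CPM in replicate 8, against 0.745 to 8.19 CPM in wild type. Among 9 factors of genome activation, Clamp, Trl and pho rose by slopes of 0.38, 0.41 and 0.38, and phol fell (slope -1.20). Over all genes 20.1% rose and 25.7% fell. None of the 9 rose and 1 fell without replicate 2 by limma, and 1 rose with median-ratio scaling. Clamp and Trl, which encode GA-binding pioneer factors, thus had 406 to 529 and 293 to 378 CPM in all 8 libraries.

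Ribosomal protein genes rose by small amounts. Of 85 cytosolic genes tested 45 rose and none fell, with a median slope of 0.30, and the summed level of the list was lowest in replicate 2 (75593 CPM) and highest in replicate 8 (96037 CPM). RpS27A had the largest slope of the list (0.54, adjusted p = 0.0144), with 849 CPM at its lowest and 1246 CPM at its highest. The count was 28 of 85 with median-ratio scaling, 23 without replicate 4, 8 without replicate 8, 2 without replicates 7 and 8, and 0 without replicate 2 by limma. In wild type 68 of 85 rose. Of 73 mitochondrial ribosomal protein genes 3 rose and 10 fell, both under the shares of all genes (20.1% and 25.7%). Neither direction kept a call without replicate 2 by limma.

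The proteasome list held both directions, 16 rising and 10 falling of 34 tested. Over all genes 20.1% rose and 25.7% fell, so the falling share of the list is near that of all genes. Divided by particle, a division made after the values were seen, 13 of 15 core particle genes rose and none fell, with slopes of 0.16 to 0.52. Of 19 regulatory particle genes 10 fell and 3 rose, with slopes of -1.46 to 1.09. Rpn8, a lid subunit gene, had 173 CPM in replicate 2, a median of 102 CPM and 74.9 CPM in replicate 8 (slope -1.43, SE 0.15, adjusted p = 8.31e-05), and Rpn11, the lid deubiquitinase gene, had 54.4 CPM in replicate 2 and 21.9 CPM in replicate 8. In wild type 13 of the 15 core genes rose, and 14 of the 19 regulatory genes fell and 3 rose, against 26.5% rising and 38.6% falling over all genes there. Without replicate 2 the Zld294 list had 0 rising and 3 falling genes by limma.

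Maternal tubulin genes differed. alphaTub67C, the egg alpha-tubulin gene, had 125 CPM in replicate 2, a median of 48.7 CPM and 29.4 CPM in replicate 8 (slope -2.32, SE 0.27, adjusted p = 0.000151). gammaTub37C, the egg gamma-tubulin gene, had 146 to 281 CPM with a slope of 0.00 (SE 0.41, adjusted p = 0.994). In wild type gammaTub37C had 1.39 to 34.2 CPM with a slope of -1.74 (SE 0.35, adjusted p = 0.00262), so every Zld294 library was above every wild-type library, a state shared by 2.3% of 8200 genes; the difference of slopes was 1.74 (SE 0.73, unadjusted p = 0.0252 by limma) and did not pass after adjustment.

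The relation to the score was set beside that of wild type and Zf5. Fitted on their own libraries, 1896 of 7152 genes rose (26.5%) and 2760 fell (38.6%) in wild type, and 2606 of 7900 rose (33%) and 2829 fell (35.8%) in Zf5. These fits share no library with Zld294. Of 1338 genes that rose in Zld294 and were tested in wild type, 1045 rose there too, which is 78.1% of the Zld294 calls and 58.8% of the wild-type calls, and 11 fell. Of 1803 falling genes 1697 fell in wild type, 94.1% of the Zld294 and 61.8% of the wild-type calls, and 3 rose. For Zf5 the shared genes were 994 rising (70.7% of the Zld294 and 54.6% of the Zf5 calls) and 1496 falling (82.9% of the Zld294 and 53.0% of the Zf5 calls).

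For the leading rising genes the slopes of both genotypes are given side by side. These genes were chosen for their large slopes in Zld294, so smaller slopes elsewhere follow in part from that choice and are read as a description. D had a slope of 7.56 in Zld294 and 3.03 (SE 1.03) in wild type, ftz 5.88 in Zld294 and 0.56 (SE 0.65) in wild type, and run 5.74 in Zld294 and 0.27 (SE 0.66) in wild type. In a limma fit of all 26 libraries with 1 intercept per genotype and day, 0 of 8192 genes had a slope that differed between Zld294 and wild type at an adjusted p under 0.05, and 368 had an unadjusted p under 0.05. Between Zld294 and Zf5 the count was also 0, with 577 at an unadjusted p under 0.05. The unadjusted counts against wild type and Zf5 were 188 and 177 without Zld294 replicate 2 and 211 and 275 without Zld294 replicate 8. Against wild type the count was 777 with only the libraries of Zld294 and wild type fitted, and against Zf5 it was 982 without Zf5 day 2 replicate 2. Among the genes described above the smallest adjusted p was that of H15 (difference 3.25, SE 0.66, adjusted p = 0.184), followed by Abd-B (5.86, SE 1.36, adjusted p = 0.307) and mid (5.82, SE 1.36, adjusted p = 0.307). The 8 Zld294 scores span 0.886 units and the wild-type scores 1.89 units, so the Zld294 slopes rest on a shorter range, and a missing call does not show that the slopes are alike.

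**Figure D5:**
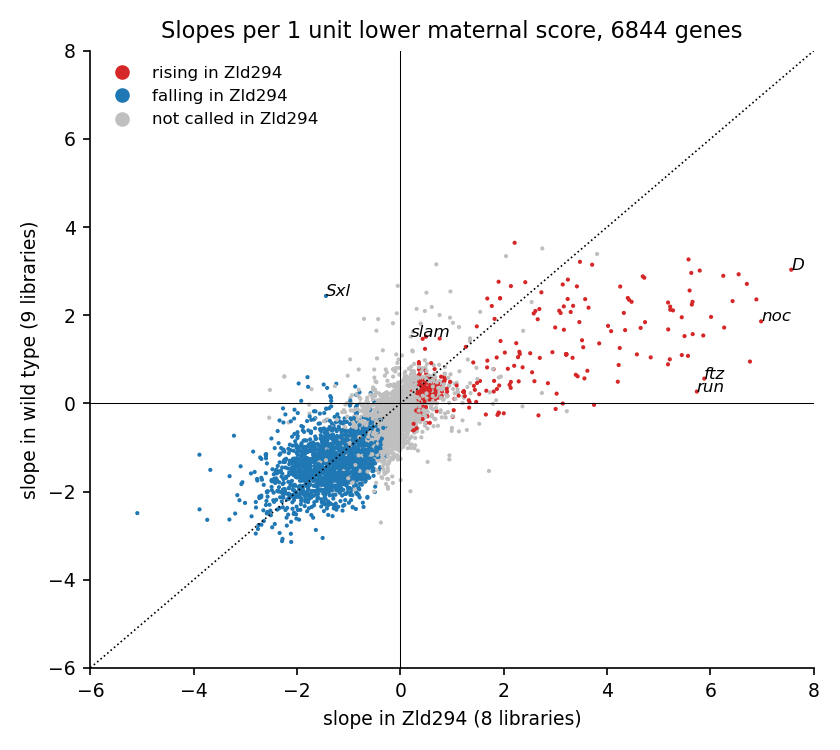
Slope of each of 6844 genes in Zld294 (x axis, 8 libraries) against its slope in a separate fit of wild type (y axis, 9 libraries), both in log2(CPM + 1) per 1 unit lower maternal score; red and blue points rose and fell in Zld294, and the dotted line marks equal slopes. Most red points with large slopes, which were selected on the x axis, lie right of the line, such as run (5.74 in Zld294 and 0.27 in wild type), and Sxl lies at -1.44 in Zld294 and 2.44 in wild type.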

How the data were processed

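RNA of 3 pooled embryos per library, staged to nuclear cycles 13 to 14, was extracted with TRIzol and made into libraries with NEBNext Ultra II, per the labels' protocols. The authors deposited 1 table per library with CPM values, read counts scaled to a fixed column total, for 14220 genes. The submitters' processing notes name kallisto, edgeR and limma and the build BDGP6; their versions, settings and strand handling are not given in the sources used here. The unit was read from the values: each column sums to 1000000, and in each library the value of 1 read differed by 0.978 to 2.01 times between short and long genes whose median lengths differ by 4.80 times, which a per-length unit would not give. Thresholds planned for TPM were therefore applied to CPM, and levels are not compared between genes per length. Estimated depths were 18.5 to 21.0 times 1000000 reads in Zld294. Low values were not whole multiples of 1 read for enough genes to recover counts, so no count model was used.

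Each gene with at least 1 CPM in 3 libraries was related to the maternal score with limma 3.58.1 in R 4.3.3 (lmFit, eBayes with a mean-variance trend) on log2(CPM + 1), two-sided, with Benjamini-Hochberg adjustment over all genes and a threshold of 0.05. All slope p-values come from these fits. A slope on this scale understates the change of genes with low values. The scale is relative, so a rise of some genes lowers others. Slope differences were contrasts in a fit of all 26 libraries with 5 intercepts. The method was tested on simulated data. Coordinates are those of Ensembl release 115 for BDGP6.54, matched by symbol for 13999 genes. Alternatives covered the pseudocount, filter, scaling, variance model, score genes and libraries.

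Members and gene lists were chosen with earlier results of these data known. Named were the 12 largest slopes in each direction among called genes averaging 5 CPM or more, up to 4 members of each list, 4 genes with the largest scatter around the score, zld and the 8 score genes. Other list members are named to account for the lists and were chosen after their values were seen.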

Additional observations from a re-analysis of the deposited data

Results flagged for a closer look

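Of 127 measures looked at over the 8 Zld294 libraries, 3 had an end library set apart from the rest by more than Dixon's 95% critical value; with so many measures, chance alone flags some. GstD1 was lowest in replicate 8, at 0.33 on the log2(CPM + 1) scale, and between 3.53 and 6.03 in the other libraries. The piRNA pathway gene shu was highest in replicate 2, at 4.04, and between 2.66 and 3.30 in the others. The score gene bcd was lowest in replicate 8, at 7.82, and between 8.18 and 8.48 in the others.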

How the results depend on the processing

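The number of rising genes, 1415, became 940 with a score of bcd, twe and Hsp83, 918 with ranked scores, 8 without replicates 2 and 8, and 565 without replicates 7 and 8, an alternative chosen after seeing the data. Leaving out each Zld294 replicate gave 202 to 1730 rising and 910 to 1924 falling genes, and 315 fell without replicates 2 and 8. The causes were not tested. Fits that leave out libraries also have fewer of them, and a shorter range of scores where an end library is left out. Other pseudocounts, filters, variance models, the score of other maternal genes and median-ratio scaling left both counts within 1.5 times. Median-ratio scaling moved the median slope over all genes to 0.01. Among the genes named by rule, 77 kept the same outcome, called or not called, without replicate 2, and 38 lost their call. Without both replicates 2 and 8, 25 kept the same outcome and 88 lost their call with the same sign. RpL41 then turned, with a slope of -0.016 in place of 0.49.

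Slope differences between Zld294 and wild type numbered 0 to 1 higher when each library was left out, 1 of them without Zld294 replicate 1. Against Zf5 they numbered 0 to 4 higher and 0 to 2 lower: 4 higher and 2 lower without Zf5 day 2 replicate 2, 4 higher without Zld294 replicate 1, and 1 higher with no filter. The median slope difference from wild type over all genes was 0.11, and -0.05 with median-ratio scaling. With the replicate number as a block, 0 slope differences passed in either direction, with 181 genes against wild type and 248 against Zf5 at an unadjusted p under 0.05. The numbers were not taken to pair Zld294 with other samples, since Zld294 was sampled on a day of its own. Of 18 same-numbered pairs, 9 correlated above 0.1 in their deviations (r from -0.77 to 0.76). Pairs with different numbers were not compared, so these correlations cannot decide whether numbers pair samples. Depth limits genes under 1 CPM.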

Other observations

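The shares of rising and falling genes varied by chromosome. On chromosome 4, 36.5% of 63 genes tested rose and 9.52% fell, on the X chromosome 16.2% of 1216 rose and 30.6% fell, and on the other arms 19.4% to 22.6% rose and 23.9% to 25.6% fell. These shares were not tested.

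The genes with the largest scatter around the score line were zld, mth, ImpL2 and CG31274. mth had 0 to 16.9 CPM across the Zld294 libraries, ImpL2, an insulin-binding protein gene, 0.927 to 22.1 CPM, and CG31274 4.21e-06 to 39.6 CPM.

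Several signalling genes were raised in replicates 7, 3 and 6 without passing the test on the score. The Hedgehog receptor gene ptc had 15.9, 6.11 and 14.3 CPM in these libraries and 0.444 to 1.44 CPM in the others, with a slope of 2.75 (adjusted p = 0.163), the Hedgehog effector gene ci had a slope of 3.22 (adjusted p = 0.0778) and pxb 3.34 (adjusted p = 0.0653).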
